A study of Mus musculus with 9 samples.

Results

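The genes described here are 7 of the galectin family: Lgals1, Lgals2, Lgals3, Lgals4, Lgals8 and Lgals9, which encode galectins, and Lgals3bp, which encodes a secreted glycoprotein that galectins bind. They were taken by gene symbol from a table of 21944 genes, and all 7 passed the filter on low values. The family was chosen with the fall of Lgals2 in the metastases in view, so the values of Lgals2 in both comparisons with the metastases are given as a description with no test. The other 6 members were named with it, and no measured value of theirs was part of the rule. The members were, however, chosen with earlier results of these data known, so their tests are not free of that choice.

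Total RNA was sequenced from tumours that mouse pancreatic neuroendocrine tumour cells of the line N134 formed in NOD.Cg-PrkdcscidIl2rgtm1Wjl/SzJ mice, a strain without T, B or NK cells that keeps its macrophages. The N134 tumours (libraries 1, 2 and 3) grew under the skin from the parental line. The N134-RHAMMB tumours (libraries 1, 2 and 4) grew under the skin from cells of the N134-RHAMMB line; RHAMMB is a form of RHAMM, a receptor for hyaluronan. The metastases (libraries 1, 2 and 3) were taken from the liver after N134-RHAMMB cells had been injected into the tail vein. Each group thus had 3 libraries, the metastases differ from the N134-RHAMMB tumours in both the site and the route of injection, which cannot be told apart, and they differ from the N134 tumours in the line as well. The labels do not say whether the libraries of a group came from separate animals, and p-values therefore describe the spread of these libraries, which may be technical. The age of the mice is, like the making of the line N134-RHAMMB, not given in the sources used here.

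Galectins are made in the cytosol without a signal peptide, leave the cell by a route outside the classical secretory pathway, and bind galactose-containing glycans, above all the N-acetyllactosamine chains of N-glycans. Outside the cell they crosslink glycoproteins such as integrins and receptors into lattices, and inside it they mark damaged vesicles by binding the glycans exposed there. Lgals1 is typical of mesenchymal and immune cells, Lgals3 of macrophages, and Lgals2 and Lgals4 of the epithelium of the digestive tract.

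The libraries held an estimated 14.6 to 18.3 M fragments and 12057 to 12542 genes at 1 FPKM (fragments per kilobase of transcript and per mega, M, of mapped fragments) or more. The hepatocyte marker Alb (albumin) was at 1410 to 1609 FPKM in the metastases and at no more than 1.60 FPKM under the skin, so the metastasis libraries contained liver RNA. Summed beta cell markers were at 32268 to 48969 FPKM in the 9 libraries. In N134-RHAMMB tumours 2 and 4 the muscle markers summed to 161 and 192 FPKM, against 8.27 to 22.5 FPKM elsewhere. Lymphocyte markers summed to at most 4.75 FPKM in any library. Metastasis 2 had the lowest value of 5 of the 7 members, beside 48.0% of the 12854 genes tested, and results that turn on it are given with and without it. In tumours measured whole, fewer cells of a type and less RNA per cell cannot be told apart.

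The level of Lgals2 ranged more widely over the 9 libraries than that of any other member, and by mean it was the most abundant galectin transcript in both groups under the skin. Lgals2 (ENSMUSG00000043501, GRCm38 chr15:78850862-78855529, minus strand, 4 exons) encodes galectin-2, a galectin with a single carbohydrate-binding domain that is known mainly from the stomach and intestine. It was at 136, 179 and 159 FPKM in the N134 tumours. In the N134-RHAMMB tumours it was at 442, 316 and 237 FPKM. The metastases had 55.6, 1.27 and 22.6 FPKM. All 3 N134-RHAMMB tumours were above all 3 N134 tumours, and all 3 metastases were below every tumour under the skin. Ranked among the genes kept, Lgals2 was number 111 in N134-RHAMMB tumour 1, number 1306 in metastasis 1 and number 11847 in metastasis 2.

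**Figure D1:**
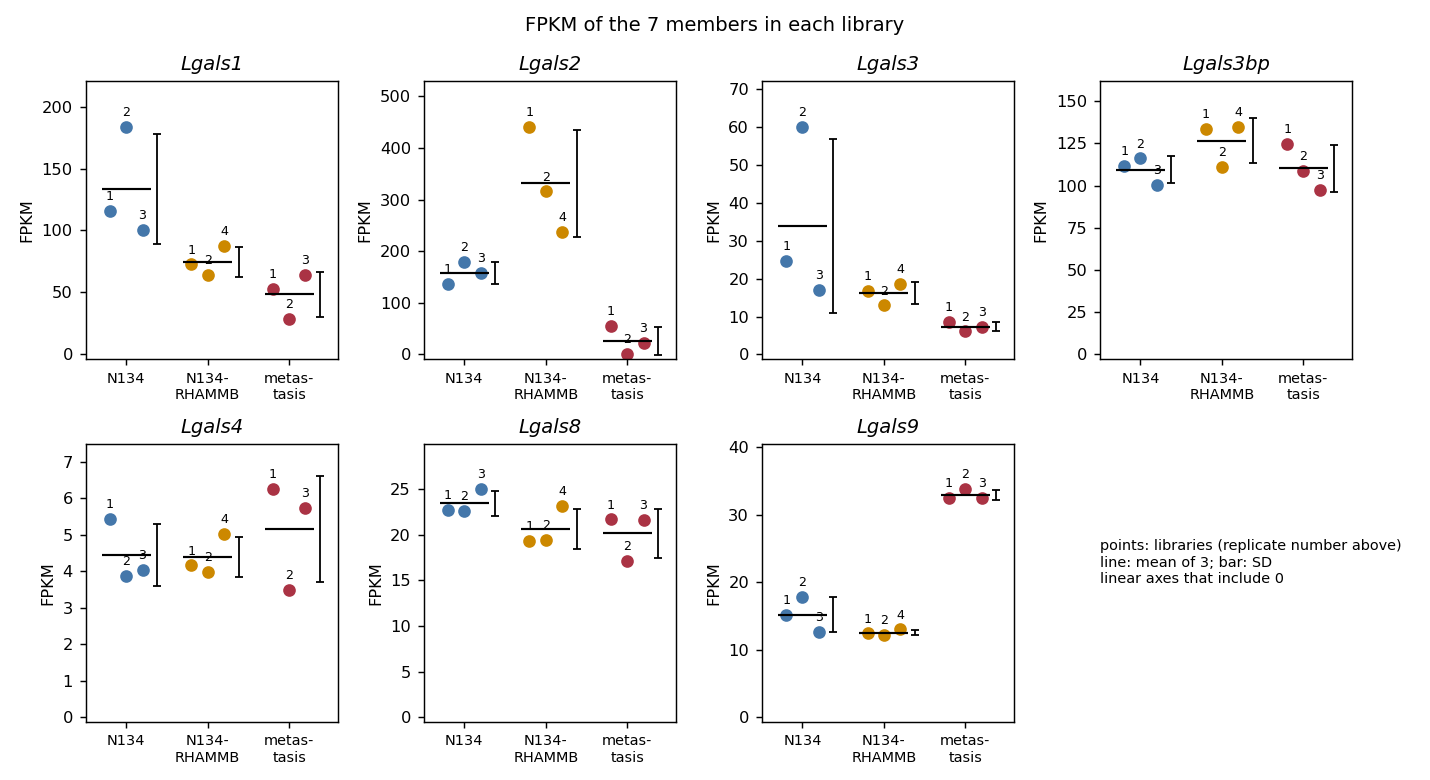
FPKM of each member (vertical axis, linear scale) in each of the 9 libraries, with N134 tumours, N134-RHAMMB tumours and metastases side by side. Points are libraries, lines are group means and bars are SDs. Lgals2 is lowest in the metastases and spreads from 1.27 to 55.6 FPKM there, while the 3 metastases of Lgals9 lie between 32.5 and 33.8 FPKM, above every other library.

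The mean of Lgals2 was 12.5-fold lower in the metastases (26.5 ± 27.4 FPKM, SD, n = 3) than in the N134-RHAMMB tumours (332 ± 103 FPKM, SD, n = 3). Against the N134 tumours (158 ± 21.4 FPKM, SD, n = 3) the metastases were 5.95-fold lower. On the log2(FPKM + 1) scale these differences were -4.47 and -3.45, and they are descriptions, since they chose the family. The 3 metastases differed among themselves by up to 43.7-fold in FPKM, and metastasis 2 set the lower end. On the log2(FPKM + 1) scale their range was 4.64, which ranked number 4 of the 12854 genes tested. Without metastasis 2 the other metastases averaged 39.1 FPKM, which was 8.47-fold below the N134-RHAMMB tumours and 4.03-fold below the N134 tumours. In metastasis 2 the value corresponds to about 13.8 fragments, so its error in counting is larger than in the others, which had about 229 fragments or more.

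The comparison that did not choose the family is that of the 2 lines under the skin, where the mean of Lgals2 was 2.101-fold higher in the N134-RHAMMB tumours. The log2 difference was 1.03 (SE 0.89, 95% interval -0.96 to 3.02, limma with Benjamini-Hochberg adjustment, adjusted p = 0.680). This did not pass the test, although the groups did not overlap, and the interval spans both directions. The shared SE includes the spread of the metastases. Fitted with only the 2 lines under the skin, the same difference had an adjusted p of 0.0429, with weights for each library it was 1.36 with an adjusted p of 0.0373, and over all 19 alternatives the adjusted p ran from 0.0373 to 0.925.

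Lgals2 is known from digestive epithelium, and the 250 bases before its start are shown because its level is the value that varied most. They lie at chr15:78855530-78855779 on the minus strand (RefSeq, GRCm38.p6) and are printed 5′ to 3′ in the direction of the gene. The capitals mark matches to CAAAGTCC (a sequence of the HNF4 type, 79 bases before the start), TTTATG (CDX type, 68 bases before) and GTTAAT (HNF1 type, 51 bases before):
Lgals2: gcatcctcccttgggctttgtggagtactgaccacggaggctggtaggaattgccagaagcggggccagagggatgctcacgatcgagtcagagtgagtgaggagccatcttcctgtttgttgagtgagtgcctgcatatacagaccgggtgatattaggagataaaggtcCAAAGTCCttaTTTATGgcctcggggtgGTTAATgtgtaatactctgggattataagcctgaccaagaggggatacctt
HNF4, HNF1 and CDX factors are regulators of digestive epithelium. The motifs were chosen after the sequence had been seen and were searched on both strands. Windows of 300 bases around gene starts held CAAAGTCC in 1.42%, TTTATG in 11.9% and GTTAAT in 7.10% of 32851 promoters. No match to any of these was found in the windows of Lgals3, Lgals3bp, Lgals4, Lgals8 or Lgals9, and TATAAA (13.6% of promoters) matched in none of the 6 members that had an entry. A match of letters is a description and not a binding site.

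Of 10 markers of intestinal epithelium, 4 were abundant enough to be tested (Tff3, Cdx2, Cdh17 and Vil1), and 2 of them, Tff3 and Cdx2, fell in both comparisons with the metastases. Of all genes tested, 1.52% were lower against the N134-RHAMMB tumours and 4.23% against the N134 tumours. The summed markers were at 38.1 to 55.1 FPKM in the N134 tumours, 54.2 to 86.8 FPKM in the N134-RHAMMB tumours and 19.0 to 27.3 FPKM in the metastases. Most of the sum was Tff3, a trefoil peptide of mucus, at 33.1, 39.7 and 50.3 FPKM in the N134 tumours, 78.3, 61.6 and 46.8 FPKM in the N134-RHAMMB tumours, and 23.1, 21.9 and 10.3 FPKM in the metastases. Cdx2, the gut transcription factor of the CDX type, was at 2.26 to 2.43, 3.57 to 4.63 and 0.085 to 1.28 FPKM in the same order, with metastasis 2 lowest. Among the metastases only metastasis 1 reached 1 FPKM of Cdx2. The gene entered the test through the tumours under the skin, so nothing is read from its passing. Cdh17 and Vil1 passed in neither comparison with the metastases. Cdh17 was at 1.201 to 1.64, 1.35 to 2.18 and 0.104 to 1.69 FPKM, and its highest metastasis was metastasis 2, where Lgals2 was lowest. Vil1 was at 0.768 to 1.28, 0.562 to 1.68 and 0.247 to 1.87 FPKM, with all groups overlapping. Phgr1 was listed at 0 in every library, Muc2 was listed at 0 in every library but metastasis 3, and Cdx1, Krt20 and Lypd8 did not exceed 0.207 FPKM. Fabp2 was listed at 0 in every tumour under the skin and was at 0.861, 1.53 and 5.999 FPKM in the metastases, opposite to Lgals2. The part of these transcripts in the level of Lgals2 was not tested.

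The genes most like Lgals2 over the 9 libraries were Gpx2, Col17a1 and Gast, with root mean square distances of 1.03, 1.10 and 1.14 after each gene's log2 values were centred. Gpx2, the glutathione peroxidase of digestive epithelium, averaged 173, 144 and 39.6 FPKM in the N134 tumours, N134-RHAMMB tumours and metastases, with 7.32 FPKM in metastasis 2. Gast, the gene of the hormone gastrin, averaged 22.5, 75.2 and 16.2 FPKM, with 2.09 FPKM in metastasis 2. Col17a1, an epithelial collagen of hemidesmosomes, averaged 9.02, 21.6 and 0.572 FPKM. These distances are large beside those of the nearest genes to Lgals1, Lgals3 and Lgals9, which were 0.159 to 0.178.

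**Figure D2:**
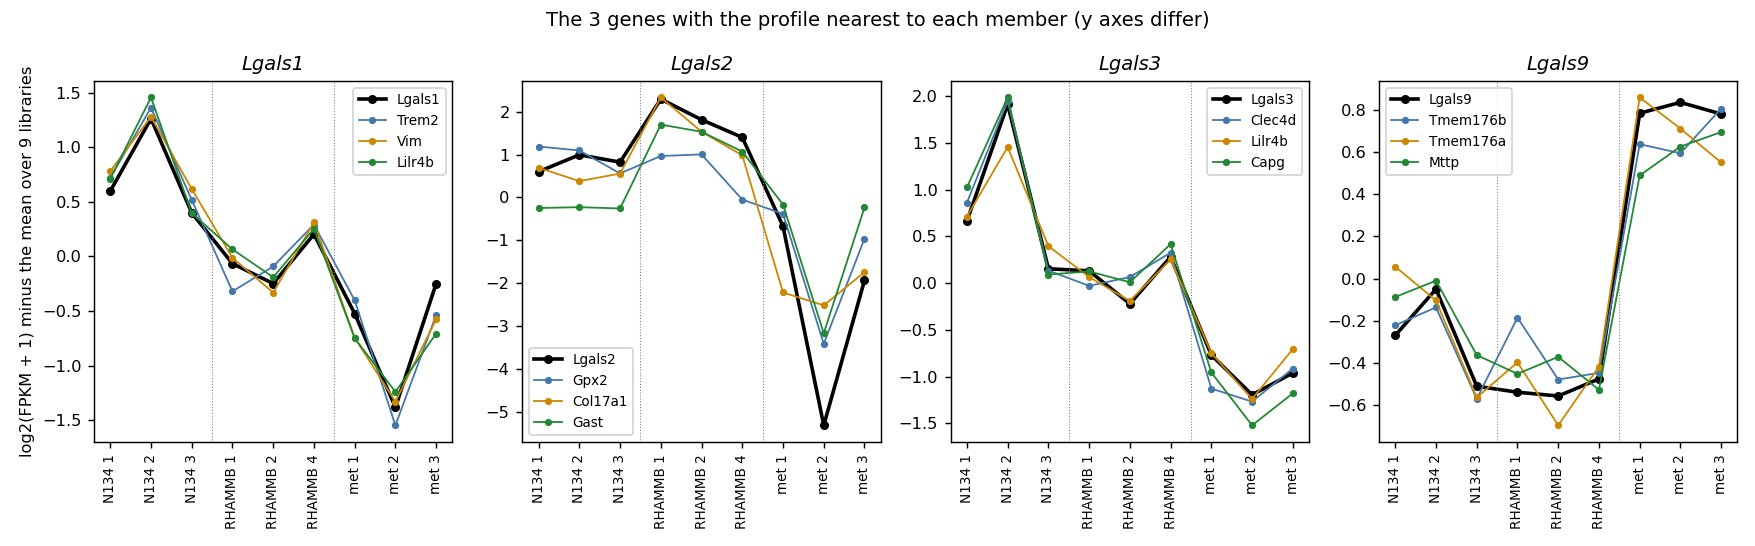
Log2(FPKM + 1) centred on each gene's mean (vertical axis) over the 9 libraries (horizontal axis), with 1 panel each for Lgals1, Lgals2, Lgals3 and Lgals9 and lines for the member and the 3 genes nearest to it. The lines lie close together for Lgals1, Lgals3 and Lgals9, while Lgals2 lies below its nearest genes in metastasis 2, with 1.27 FPKM there beside 7.32 FPKM of Gpx2; the vertical axes differ.

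Lgals2 lies 71195 bases from Lgals1 on chromosome 15, with 2 protein-coding genes of the table between them. These were Gga1, a sorting adaptor of the Golgi (11.6 ± 1.66, 9.98 ± 1.44 and 11.2 ± 0.896 FPKM, SD, n = 3 each, in the order N134 tumours, N134-RHAMMB tumours, metastases), and Sh3bp1, a regulator of Rac (24.4 ± 0.984, 25.9 ± 3.34 and 23.8 ± 2.64 FPKM). Neither passed the test in any of the 3 comparisons (limma, adjusted p of 0.629 or more), with log2 differences from -0.19 to 0.16.

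Lgals9 was the member that rose in the metastases, and it did so in all 3 of them by nearly the same amount. Lgals9 (ENSMUSG00000001123, chr11:78962974-78984946, minus strand) encodes galectin-9, a galectin with a pair of carbohydrate-binding domains that is known as a ligand of the immune receptor TIM-3. It was at 15.2, 17.8 and 12.7 FPKM in the N134 tumours. In the N134-RHAMMB tumours it was at 12.4, 12.2 and 13.0 FPKM. The metastases had 32.5, 33.8 and 32.5 FPKM, each above every tumour under the skin and within 1.04-fold of each other.

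The mean rose 2.62-fold from the N134-RHAMMB tumours (12.5 ± 0.403 FPKM, SD, n = 3) to the metastases (32.9 ± 0.728 FPKM, SD, n = 3), a log2 difference of 1.32 (SE 0.13, 95% interval 1.04 to 1.61, limma adjusted p = 4.57e-05). Against the N134 tumours (15.2 ± 2.57 FPKM, SD, n = 3) it rose 2.16-fold, a log2 difference of 1.08 (SE 0.13, 95% interval 0.79 to 1.36, limma adjusted p = 2.37e-04). These comparisons share the metastases and are not independent. The lines under the skin differed by -0.25 (SE 0.13, 95% interval -0.53 to 0.037, limma adjusted p = 0.460), which did not pass. Both rises passed under every alternative tried, with log2 differences of 1.31 to 1.41 and 0.96 to 1.19.

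Because Lgals9 had the least spread in the metastases and the most even rise, the 250 bases before its start are shown. They lie at chr11:78984925-78985174 on the minus strand (RefSeq, GRCm38.p6), printed 5′ to 3′ in the direction of the gene. The start is that of RefSeq, and the last 22 bases printed lie inside the gene as the table bounds it. The capitals mark a match on the opposite strand to the interferon-stimulated response element, here GAAA, any 2 bases and GAAA, 55 bases before the start:
Lgals9: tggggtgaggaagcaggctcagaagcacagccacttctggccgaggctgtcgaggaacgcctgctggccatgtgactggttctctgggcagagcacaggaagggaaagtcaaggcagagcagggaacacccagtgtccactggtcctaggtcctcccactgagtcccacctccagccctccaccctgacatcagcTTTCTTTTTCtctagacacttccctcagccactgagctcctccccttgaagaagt
A further match to the motif lay 15 bases after the start, outside the printed stretch. The motif was in 3.44% of the 32851 promoter windows and in none of those of Lgals2, Lgals3, Lgals3bp, Lgals4 and Lgals8.

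Hepatocyte markers were higher in the same libraries as Lgals9, and Kupffer cell markers were mixed. All 10 hepatocyte markers were measured, with sums of 339 to 430 FPKM in the N134 tumours, 288 to 397 FPKM in the N134-RHAMMB tumours and 3843 to 3936 FPKM in the metastases. Under the skin nearly all of the sum was Ttr, transthyretin, which islet cells also make, at 282 to 427 FPKM. In the metastases 10 of 10 passed as higher against the N134-RHAMMB tumours and 9 of 10 against the N134 tumours, beside 5.04% and 5.69% of all genes tested. Ahsg, Serpinc1, Fga, Fgb, Cps1 and Hpx were below 1 FPKM in every tumour under the skin. They entered the test only through the metastases, so nothing is read from their passing. The 6 markers of Kupffer cells, the macrophages of the liver, summed to 5.49 to 25.6, 6.12 to 11.4 and 4.89 to 12.0 FPKM in the 3 groups, and the defining marker Clec4f was at 1.93, 5.22 and 1.69 FPKM in the metastases and at no more than 0.15 FPKM elsewhere. From N134 tumours to metastases 1 Kupffer cell marker passed as higher (Clec4f) and 1 as lower (Folr2). Clec4f reached 1 FPKM only in the metastases, so nothing is read from its passing either. Folr2 was at 3.34 to 11.02 FPKM in the N134 tumours, 3.39 to 6.01 FPKM in the N134-RHAMMB tumours and 0.427 to 0.525 FPKM in the metastases. It entered the test only through the tumours under the skin, so its passing is not read either. Marco was at 0.742 to 8.82, 0.688 to 1.90 and 0.211 to 0.349 FPKM, and the median log2 difference of the list from N134 tumours to metastases was -0.23. The 5 markers of liver sinusoidal endothelium summed to 31.2 to 33.4, 23.4 to 32.5 and 38.5 to 59.4 FPKM. The nearest genes to Lgals9 in pattern were Tmem176b, Tmem176a and Mttp, with distances of 0.159, 0.159 and 0.163. Mttp, which loads lipid onto apolipoprotein B in liver and gut, averaged 5.60, 4.35 and 10.1 FPKM in the N134 tumours, N134-RHAMMB tumours and metastases, and Tmem176b averaged 53.7, 51.2 and 107 FPKM. The part of liver RNA in the level of Lgals9 was not tested.

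Lgals1 and Lgals3 were both highest in the N134 tumours and lowest in the metastases, and both fell between those groups. Lgals1 (ENSMUSG00000068220, chr15:78926725-78930465, plus strand) encodes galectin-1, a galectin that dimerises and crosslinks glycoproteins on immune, stromal and endothelial cells. It was at 116, 184 and 101 FPKM in the N134 tumours. In the N134-RHAMMB tumours it was at 72.7, 63.9 and 87.8 FPKM. The metastases had 52.7, 28.6 and 63.9 FPKM. The N134 tumours lay above all others, while the highest metastasis and the lowest N134-RHAMMB tumour had the same value to 3 digits.

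From the N134 tumours (133 ± 44.3 FPKM, SD, n = 3) to the metastases (48.4 ± 18.0 FPKM, SD, n = 3) Lgals1 fell 2.76-fold, a log2 difference of -1.47 (SE 0.29, 95% interval -2.12 to -0.82, limma adjusted p = 0.00881). Without metastasis 2 the fold was 2.29 and without N134 tumour 2, the highest library, it was 2.24. The N134-RHAMMB tumours (74.8 ± 12.1 FPKM, SD, n = 3) were 1.78-fold below the N134 tumours, a log2 difference of -0.79 (SE 0.29, 95% interval -1.44 to -0.14, limma adjusted p = 0.305). The metastases were 1.55-fold below the N134-RHAMMB tumours, a log2 difference of -0.68 (SE 0.29, 95% interval -1.33 to -0.028, limma adjusted p = 0.276). Neither of these passed, although the intervals for this gene alone leave out 0. With weights for each library the difference of the lines was -0.78 with an adjusted p of 0.0153.

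Lgals3 (ENSMUSG00000050335, chr14:47367751-47386160, plus strand) encodes galectin-3, the galectin with a collagen-like tail that forms pentamers and is abundant in macrophages. It was at 24.7, 60.1 and 17.0 FPKM in the N134 tumours. In the N134-RHAMMB tumours it was at 16.8, 12.9 and 18.7 FPKM. The metastases had 8.52, 6.09 and 7.33 FPKM, below all other libraries. N134 tumour 2 stood above the rest of its group, and the N134 and N134-RHAMMB tumours overlapped.

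From the N134 tumours (33.9 ± 23.0 FPKM, SD, n = 3) to the metastases (7.31 ± 1.21 FPKM, SD, n = 3) Lgals3 fell 4.64-fold, a log2 difference of -1.88 (SE 0.36, 95% interval -2.70 to -1.07, limma adjusted p = 0.00737). Without N134 tumour 2 the fold of the means was 2.85, which moves it by more than 1.5 times, and the difference still passed under every alternative (adjusted p of 0.00184 to 0.0357). Between the N134-RHAMMB tumours (16.1 ± 2.95 FPKM, SD, n = 3) and the metastases the log2 difference was -1.04 (SE 0.36, 95% interval -1.85 to -0.23, limma adjusted p = 0.161), which did not pass although the groups did not overlap. It passed without N134 tumour 2, which widens the shared spread (adjusted p = 0.0111), and with only these 2 groups fitted (adjusted p = 0.0131). The lines under the skin differed by -0.85 (SE 0.36, 95% interval -1.66 to -0.035, limma adjusted p = 0.367), and without N134 tumour 2 the ratio of the means went from 2.104-fold to 1.29-fold.

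**Figure D3:**
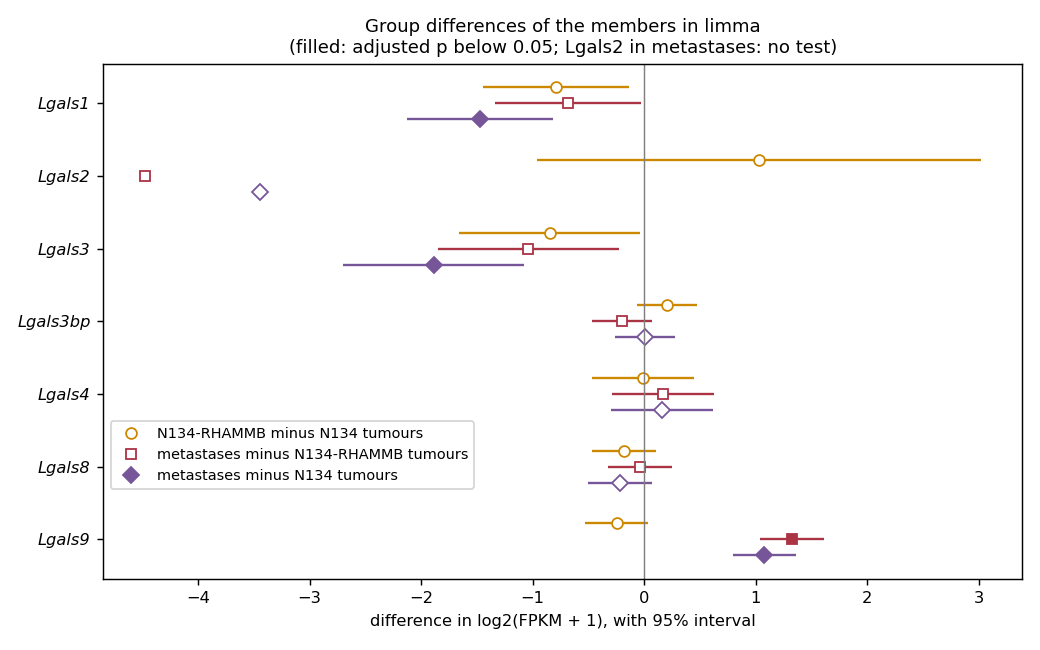
Log2 difference of each member (horizontal axis, log2(FPKM + 1) scale) in the 3 comparisons, with 95% intervals from limma and filled points where the adjusted p is below 0.05; Lgals2 has no interval in the comparisons with the metastases, which chose the family. Lgals9 lies above 0 at 1.32 and 1.08 in the metastases, and Lgals1 and Lgals3 lie below 0 at -1.47 and -1.88 against the N134 tumours.

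Summed macrophage markers were highest in the N134 tumours, as Lgals1 and Lgals3 were, while the N134-RHAMMB tumours and the metastases overlapped. Cd14 went the other way between these 2 groups, from 1.99, 2.72 and 1.81 FPKM to 4.40, 2.91 and 2.55 FPKM. The 12 of 12 markers measured summed to 397 to 682 FPKM in the N134 tumours, 283 to 369 FPKM in the N134-RHAMMB tumours and 198 to 321 FPKM in the metastases. From the N134 tumours to the metastases 10 of the 12 fell (median log2 difference -1.20), and none passed by limma between the lines (12 at an unadjusted p under 0.05, median -0.72) or from N134-RHAMMB tumours to metastases (5 at an unadjusted p under 0.05, median -0.45). Over all 12854 genes tested, 1648 and 2142 had an unadjusted p under 0.05 by limma in the last 2 comparisons. The 10 fibroblast markers summed to 626 to 885, 290 to 502 and 191 to 404 FPKM, and 6 of the 10 fell from the N134 tumours to the metastases, 2 between the lines, and 2 from N134-RHAMMB tumours to metastases, where 1 rose. Of all genes tested, 4.23%, 0.117% and 1.52% were lower in these comparisons, and 5.04% were higher in the last. Most of the fibroblast sum was Col3a1, at 433 to 645, 200 to 333 and 111 to 285 FPKM in the 3 groups. Dcn, at 24.5 to 28.7, 10.6 to 14.9 and 24.4 to 34.0 FPKM, was higher in the metastases than in the N134-RHAMMB tumours. None of the defining markers of either list was at 0 in a whole group. The macrophage marker Cd163 and the fibroblast marker Thy1 were below 1 FPKM in every metastasis. Both entered the test through the tumours under the skin, so nothing is read from them in these counts. The highest macrophage sum, that of N134 tumour 2, coincided with the highest Lgals1 and Lgals3.

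Set against the macrophage markers, Lgals3 was at 4.86, 8.81 and 4.29 FPKM per 100 FPKM of markers in the N134 tumours. The same ratio was 5.92, 4.43 and 5.07 in the N134-RHAMMB tumours and 2.65, 3.08 and 3.65 in the metastases, again below every tumour under the skin. Lgals1 per 100 FPKM of macrophage markers was 22.8, 26.9 and 25.4 in the N134 tumours, 25.7, 21.9 and 23.8 in the N134-RHAMMB tumours and 16.4, 14.5 and 31.8 in the metastases, so these groups overlapped. Per 100 FPKM of fibroblast markers Lgals1 also overlapped, at 13.1 to 24.6, 17.5 to 22.01 and 13.0 to 19.3, a ratio that rests mostly on Col3a1. The part of macrophages and fibroblasts in the levels of Lgals1 and Lgals3 was not tested.

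**Figure D4:**
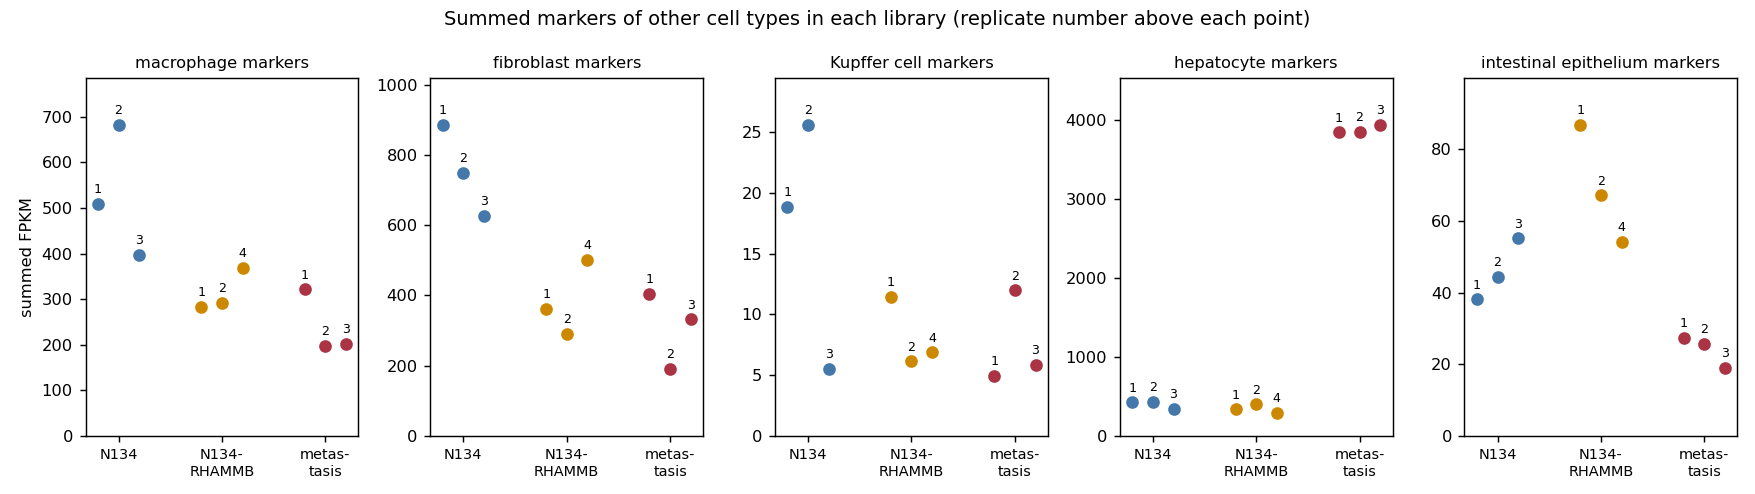
Summed FPKM (vertical axes, each from 0) of the macrophage, fibroblast, Kupffer cell, hepatocyte and intestinal epithelium markers in each of the 9 libraries, 1 panel a list, with points for libraries and their replicate numbers. The macrophage sum is highest at 682 FPKM in N134 tumour 2, and the hepatocyte sum is at 3843 FPKM or more in the 3 metastases alone.

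The nearest genes to Lgals1 in pattern were Trem2, Vim and Lilr4b, with distances of 0.170, 0.170 and 0.198. Vim, the intermediate filament of mesenchymal cells, averaged 139, 73.5 and 40.0 FPKM in the N134 tumours, N134-RHAMMB tumours and metastases, and Trem2, a lipid receptor of macrophages, averaged 16.5, 8.21 and 4.56 FPKM. Those nearest to Lgals3 were Clec4d, Lilr4b and Capg, with distances of 0.178, 0.196 and 0.210. Clec4d, a lectin receptor of myeloid cells, averaged 5.61, 2.20 and 0.370 FPKM, and Capg, an actin-capping protein of macrophages, averaged 15.7, 7.11 and 2.09 FPKM. Lilr4b, an inhibitory receptor of myeloid cells, was in both lists, so Lgals1 and Lgals3 shared a neighbour.

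Lgals3bp, Lgals8 and Lgals4 passed in none of the 3 comparisons. Lgals3bp (ENSMUSG00000033880, chr11:118392751-118402092, minus strand), the secreted binding partner of galectin-3 and galectin-1, was at 112, 116 and 101 FPKM in the N134 tumours, 133.6, 111 and 135 FPKM in the N134-RHAMMB tumours and 125, 109 and 97.3 FPKM in the metastases. Its log2 differences were 0.20 between the lines, -0.20 from N134-RHAMMB tumours to metastases and 0.0051 from N134 tumours to metastases (95% interval of the last -0.26 to 0.28, limma adjusted p of 0.486 or more in all 3). Its means in the N134 tumours (109.6 ± 8.08 FPKM, SD, n = 3) and the metastases (110.3 ± 13.9 FPKM, SD, n = 3) were alike, in the comparison in which Lgals1 and Lgals3 fell.

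Lgals8 (ENSMUSG00000057554, chr13:12439415-12464944, minus strand) encodes galectin-8, which binds damaged vesicles and in human cells recruits the autophagy receptor NDP52. It was at 22.7, 22.6 and 25.0 FPKM in the N134 tumours, 19.3, 19.4 and 23.2 FPKM in the N134-RHAMMB tumours and 21.7, 17.1 and 21.7 FPKM in the metastases. The metastases lay below the N134 tumours without overlap, by a log2 difference of -0.21 (SE 0.13, 95% interval -0.50 to 0.073, limma adjusted p = 0.397), which did not pass. Lgals4 (ENSMUSG00000053964, chr7:28833854-28841708, plus strand), the galectin of intestinal epithelium that binds sulfated glycolipids, was the lowest member by group mean, at 5.42, 3.88 and 4.03 FPKM, then 4.16, 3.99 and 5.02 FPKM, then 6.25, 3.50 and 5.74 FPKM. All its groups overlapped, and its log2 differences were -0.0092, 0.17 and 0.16 (limma adjusted p of 0.740 or more). Some mouse strains carry a near-identical copy, Lgals6, so the value of Lgals4 is uncertain.

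Counted over the 6 members other than Lgals2, none passed between the 2 lines (limma, 2 at an unadjusted p under 0.05), beside 0.0778% of all genes tested higher and 0.117% lower. From N134-RHAMMB tumours to metastases 1 was higher and none lower (limma, 3 at an unadjusted p under 0.05), beside 5.04% of genes higher and 1.52% lower. Over all 12854 genes tested, 1648 between the lines and 2142 in this comparison had an unadjusted p under 0.05 by limma. From N134 tumours to metastases 1 was higher and 2 were lower, beside 5.69% and 4.23%. The split of all genes in the last comparison, 732 higher and 544 lower, was 758 higher and 821 lower with quantile normalization. The groups did not overlap for 1, 3 and 4 of the 6 in the 3 comparisons, where 25.3%, 19.8% and 25.7% of genes did not overlap. Lgals1 was among the 3 by a very small margin. Its highest metastasis was at 63.9087 FPKM and its lowest N134-RHAMMB tumour at 63.9133 FPKM. The median log2 differences of the 6 were -0.21, -0.12 and -0.10, and those of all genes tested were 0.01, -0.06 and -0.03. The family was chosen on the comparisons with the metastases, so nothing is read from their counts, and beside a background this low 0 of 6 between the lines says little. Each pair of comparisons shares a group of libraries.

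The remaining rows of the family add little RNA. Lgals12, a galectin of adipocytes, was at 0.553 to 0.785, 0.821 to 1.44 and 0.115 to 3.01 FPKM in the 3 groups and passed in no comparison. The adipocyte markers summed to 51.4 to 70.1, 30.9 to 94.6 and 13.8 to 19.5 FPKM, with Adipoq and Plin1 listed at 0 in the metastases. Lgalsl, the galectin-related protein, was at 3.92 to 4.40, 2.35 to 3.27 and 2.99 to 5.21 FPKM and passed in no comparison. Lgals7, a galectin of keratinocytes, was at 2.05 FPKM in N134 tumour 2 and 4.03 FPKM in N134-RHAMMB tumour 2 and at or below 0.339 FPKM elsewhere, and the same 2 libraries had the highest keratinocyte sums, 14.2 and 18.4 FPKM against 4.49 to 9.58 FPKM. Grifin, a galectin-related protein of the lens, stayed at or below 0.172 FPKM.

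The composition of the galectin transcripts differed between the groups. FPKM is a level per length, so genes can be set beside each other on it. In the N134 tumours the order by mean was Lgals2, Lgals1, Lgals3bp, Lgals3, Lgals8, Lgals9 and Lgals4, where the first 3 neighbours overlapped and so did Lgals3 with Lgals8. In the N134-RHAMMB tumours it was Lgals2, Lgals3bp, Lgals1, Lgals8, Lgals3, Lgals9 and Lgals4, where Lgals3 and Lgals9 overlapped. In the metastases it was Lgals3bp, Lgals1, Lgals9, Lgals2, Lgals8, Lgals3 and Lgals4, where the neighbours from Lgals1 to Lgals8 overlapped and so did Lgals3 with Lgals4.

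The 10 galectin rows without Lgals3bp summed to 325, 474 and 323 FPKM in the N134 tumours. The sum was 571, 436 and 390 FPKM in the N134-RHAMMB tumours and 184, 93.4 and 162 FPKM in the metastases, below every tumour under the skin. Without Lgals2 the sums were 189, 295 and 164 FPKM, then 129, 121 and 153 FPKM, then 129, 92.1 and 139 FPKM, so the N134-RHAMMB tumours and the metastases overlapped. These sums rest in part on Lgals2, and they are descriptions.

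**Figure D5:**
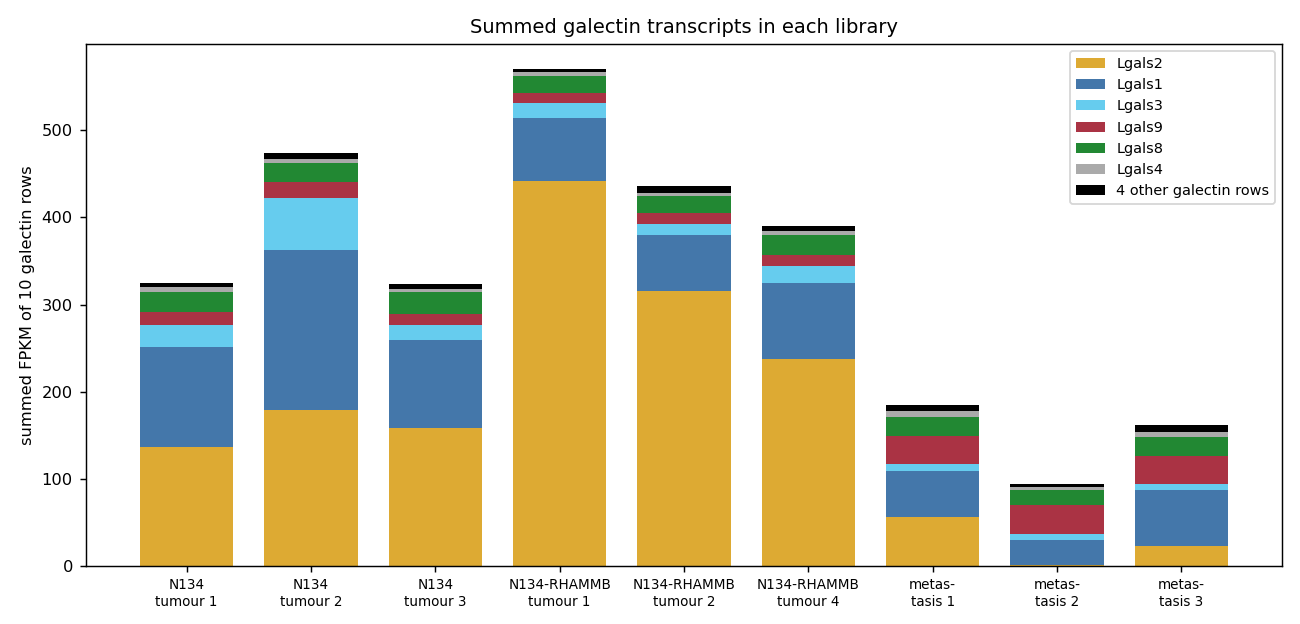
Summed FPKM of the galectin rows (vertical axis, from 0) in each of the 9 libraries, stacked by gene. Lgals2 is the largest block in all tumours under the skin but N134 tumour 2, where Lgals1 is larger, and the metastases reach 93.4 to 184 FPKM in all.

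The share of Lgals2 in the galectin sum was 41.8%, 37.7% and 49.1% in the N134 tumours, 77.4%, 72.4% and 60.8% in the N134-RHAMMB tumours and 30.2%, 1.36% and 14.0% in the metastases. Lgals9 held 2.17% to 4.67% under the skin and 17.7%, 36.1% and 20.0% in the metastases. Lgals1 held 31.2% to 38.8% in the N134 tumours, 12.7% to 22.5% in the N134-RHAMMB tumours and 28.6% to 39.5% in the metastases. Each share depends on Lgals2, which is part of the sum and whose fall chose the family. The level of Lgals1 itself was 63.9 to 87.8 FPKM in the N134-RHAMMB tumours and 28.6 to 63.9 FPKM in the metastases. Nothing is therefore read from the larger shares of Lgals1 and Lgals9 in the metastases. The ratio of Lgals9 to Lgals3 lay between 0.296 and 0.947 under the skin and at 3.82, 5.54 and 4.43 in the metastases, while that of Lgals1 to Lgals3 lay between 3.06 and 8.71 over all 9 libraries.

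Galectins act through glycans, so the genes that build and cap those glycans and the glycoproteins that carry them were measured alongside. These lists were chosen with earlier results of these data known, which limits what their counts can show. The 22 genes listed for N-glycan branching and N-acetyllactosamine synthesis, among them the O-glycan genes C1galt1, C1galt1c1 and Gcnt1, did not change detectably. None of the 22 passed in any of the 3 comparisons (limma, with 0, 2 and 4 at an unadjusted p under 0.05), and the medians of their log2 differences were -0.048, -0.074 and -0.038. Over all 12854 genes tested, 1648, 2142 and 2752 had an unadjusted p under 0.05 by limma. B4galt1, which adds the galactose that galectins bind, was lower in the metastases than in the N134 tumours by a log2 difference of -0.48 (limma adjusted p = 0.0575). Without metastasis 2 the counts were 1 from N134-RHAMMB tumours to metastases and 2 from N134 tumours to metastases.

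Of 17 genes for sialic acid caps, 16 were tested. The list covers the making, transport and transfer of sialic acid, and the sialidase Neu1, which removes it. From N134-RHAMMB tumours to metastases St3gal4 rose, from 2.81 to 7.97 FPKM, a log2 difference of 1.27 (limma adjusted p = 0.00374). St6galnac2, which sialylates O-glycans, fell from 16.1 ± 4.98 to 2.13 ± 1.80 FPKM (SD, n = 3 each), a log2 difference of -2.56 (limma adjusted p = 6.21e-04). Both moved the same way against the N134 tumours, by 1.04 and -1.54 (limma adjusted p = 0.0108 and 0.0166), where St6gal1 rose as well, from 28.8 ± 2.22 to 42.2 ± 5.65 FPKM (SD, n = 3 each), by 0.53 (limma adjusted p = 0.0315). St6gal1 adds the sialic acid linkage known to block the binding of galectin-1. From N134-RHAMMB tumours to metastases 1 of the 16 was higher and 1 lower, beside 5.04% and 1.52% of all genes tested. From N134 tumours to metastases 2 were higher and 1 lower, beside 5.69% and 4.23%. None of the 16 passed between the 2 lines (limma, 3 at an unadjusted p under 0.05, beside 1648 of all 12854 genes tested). The medians of the list were 0.044, 0.035 and 0.15. The hepatocyte markers were higher in the same libraries, with the sums given above, and the part of liver RNA in the rises of St3gal4 and St6gal1 was not tested. The count of 3 against the N134 tumours was 1 without N134 tumour 2 and 2 without N134-RHAMMB tumours 2 and 4.

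Of 26 glycoproteins known as galectin counter-receptors, 23 were tested, and those that passed were lower in the metastases. From N134-RHAMMB tumours to metastases Cd44, the hyaluronan receptor, fell from 12.0 ± 0.611 to 5.89 ± 0.0336 FPKM (SD, n = 3 each), a log2 difference of -0.92 (SE 0.13, limma adjusted p = 7.26e-04). Pdpn, podoplanin, fell with it by 1.02 on the log2 scale (limma adjusted p = 0.00491). With Pdpn counted, 2 of 23 were lower, beside 1.52% of all genes tested. Against the N134 tumours, where 4.23% of all genes tested were lower, 7 of 23 fell. Among these were Mcam, an adhesion molecule of vessel walls (33.5 ± 4.33 to 17.2 ± 2.66 FPKM, limma adjusted p = 0.00822), Tgfbr2 (9.21 ± 1.98 to 3.94 ± 0.592 FPKM, limma adjusted p = 0.00748), Itgb2, the beta chain of leukocyte integrins (8.96 ± 3.40 to 3.59 ± 1.56 FPKM, limma adjusted p = 0.0402) and Ptprc, the leukocyte phosphatase CD45 (6.13 to 3.02 FPKM, limma adjusted p = 0.0109). The others were Cd44, Itga5 and Pdpn, and nothing is read from the passing of Pdpn here either. Pdpn and Itga5 averaged less than 5 FPKM in every group and are named after their values were seen, to complete the counts.

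The medians of the counter-receptors were -0.32, -0.17 and -0.21 in the 3 comparisons. Between the 2 lines none passed (limma, 11 at an unadjusted p under 0.05, and 1 without metastasis 2). Over all 12854 genes tested, 1648 had an unadjusted p under 0.05 by limma between the lines. The glucose transporter Slc2a2, whose place on the beta cell surface is known to depend on a galectin lattice, was at 133.6 ± 18.8 FPKM in the N134 tumours and 58.9 ± 19.4 FPKM in the N134-RHAMMB tumours (SD, n = 3 each), a log2 difference of -1.21 that did not pass (limma adjusted p = 0.501). Its metastases were at 80.8 ± 79.5 FPKM (SD, n = 3), and the shared SE of 0.69 includes their spread. The 7 counter-receptors lower in the metastases than in the N134 tumours became 3 without N134 tumour 2 and 4 without N134-RHAMMB tumours 2 and 4, and without metastasis 2 they were 5 lower and 1 higher. The 2 lower than in the N134-RHAMMB tumours became 1 without N134-RHAMMB tumours 2 and 4, and without metastasis 2 they were 2 lower and 1 higher. Itgb2 and Ptprc are leukocyte genes, and the macrophage markers, with the sums given above, fell in the same comparison.

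Of 10 genes of the response to damaged membranes, in which galectins 3, 8 and 9 mark broken vesicles, 8 were tested and none passed in any comparison (limma, 0, 2 and 2 at an unadjusted p under 0.05). Their medians were 0.027, -0.070 and 0.054. Over all 12854 genes tested, 1648, 2142 and 2752 had an unadjusted p under 0.05 by limma. Optn, an autophagy receptor, was higher in the metastases by log2 differences of 0.44 and 0.39 (limma adjusted p = 0.105 and 0.115).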

How the data were processed

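Total RNA of 9 tumours in 3 groups was extracted with the Qiagen miRNeasy kit, per the labels' protocols. The tools named in the submitters' processing notes, with no role stated, are STAR 2.5.2, Cufflinks 2.1.1 and bcl2fastq 2.19, and the build is GRCm38. The library preparation is, like the strand and read length, not given in the sources used here. The authors deposited 1 table of FPKM values for 22053 rows in all libraries, per the file headers. FPKM divides by length and library size, so a gene's value falls when others take more of a library, and without strand information overlapping genes cannot be separated.

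Rows with a failed estimate (7) and repeated symbols at other loci (102) were dropped, which left 21944 genes, of which 12854 had at least 1 FPKM in at least 3 libraries and were tested. No member had a low-data status, and no 2 libraries held identical values. Starts are those of the table plus 1, which matched GENCODE M21 in 82.3% of 21737 genes. Fragments per library were estimated from the value of a single fragment in low genes. limma 3.58.1 (R 4.3.3) was fitted with an intensity trend to log2(FPKM + 1) of all 9 libraries, 2-sided, with p-values adjusted by Benjamini and Hochberg's method over the 12854 genes and a threshold of 0.05. Fold changes on this scale understate changes of low genes. With 3 libraries a group, the smallest p of an exact permutation test is 0.1, and none was run. The script was tested on simulated data.

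Genes named from a list were those past the threshold with a mean of at least 5 FPKM in a group compared, or else those with the largest change. Likeness was the root mean square distance between centred log2 values over 9 libraries, among 10041 genes. The members, gene lists and motifs were chosen with earlier results of these data known. Promoter sequences came from RefSeq (GRCm38.p6), in which 6 of 7 members matched. Alternatives covered the pseudocount, filter, scaling, variance model, samples fitted, replicate numbers and left-out libraries.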

Additional observations from a re-analysis of the deposited data

How the results depend on the processing

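Over 358 values of the members with a test, under up to 19 alternatives, 340 kept their direction and side of the threshold, 7 newly passed and 11 reversed, and no member that passed lost its call. The 38 values of Lgals2 without a test kept their direction. From N134 tumours to metastases Lgals1 ranged from -1.70 to -1.14 and Lgals3 from -2.26 to -1.38. Lgals2 ranged from -5.46 to -3.14 against the N134-RHAMMB tumours and from -4.43 to -2.11 against the N134 tumours. The values that newly passed, with the adjusted p from limma, were those of Lgals1, Lgals2 and Lgals3 given above and, between the lines with library weights, Lgals3bp (0.29, adjusted p = 0.0392) and Lgals8 (-0.26, adjusted p = 0.0470). All reversals were of small differences that did not pass. Lgals4 between the lines became 0.026 with quantile normalization and, without 1 library, ranged from -0.091 to 0.12 (0.12 without N134 tumour 1, 0.020 and 0.044 without N134-RHAMMB tumours 1 and 2). Lgals8 from N134-RHAMMB tumours to metastases became 0.012 with median-of-ratios scaling, 0.11 with library weights and 0.048 without N134-RHAMMB tumours 2 and 4, and without 1 library ranged from -0.092 to 0.071 (0.045 without N134-RHAMMB tumour 4, 0.071 without metastasis 2). Lgals3bp from N134 tumours to metastases ranged without 1 library from -0.088 (metastasis 1) to 0.091, with -0.055 without N134 tumour 3. The cause was not tested.

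Genes passing between the lines were 25, but 15 with a mean of at least 5 FPKM (fewer genes tested), 263 with only these groups, 2629 with library weights and 1 without N134-RHAMMB tumours 2 and 4. Leaving out 1 library gave 0 to 191: 0 without N134 tumours 1, 2 or 3 (1257, 1072 and 1304 genes had an unadjusted p below 0.05 by limma), 8, 2 and 2 without N134-RHAMMB tumours 1, 2 and 4, and 191 without metastasis 2. From N134-RHAMMB tumours to metastases 843 passed, 347 with the higher mean, 1950 with weights and 507 without N134-RHAMMB tumours 2 and 4, and 356 to 775 without 1 library (369 and 356 without metastases 1 and 3). Of the 843, 648 were higher and 195 lower, against 630 and 314 with quantile normalization. From N134 tumours to metastases 1276 passed, 594 with the higher mean, and 619 to 1174 without 1 library (722 and 619 without metastases 1 and 3). With the replicate number as a replicate block the counts were 1, 646 and 1097, and no member's call changed. Whether the numbers pair the libraries was not settled by correlations. The 7 pairs of the same number correlated at -0.0027 to 0.102 and other pairs at -0.195 to 0.150. Between N134 tumours and metastases, 3 of the 6 libraries correlated best with their own number. N134-RHAMMB tumour 1 did so with the N134 tumours (0.043) and the metastases (0.074), and N134-RHAMMB tumour 2 likewise (0.102 and 0.097). N134-RHAMMB tumour 4 had no library of its number. Leaving out libraries for the counts of the gene lists was chosen after seeing the data. Depth limits the low values, above all Lgals2 in metastasis 2.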
